A study of Mus musculus with 4 samples.

Results

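The bile acid and organic anion transporters described here were 10 genes chosen by symbol from the 24346 gene symbols of the expression tables, and all 10 were above 0 FPKM in every library. Of these, 4 encode carriers that bring bile acids and other organic anions into the hepatocyte from the blood (Slc10a1, Slco1b2, Slco1a4 and Slco1a1), 3 encode pumps that export into bile (Abcb11, Abcb4 and Abcc2), 2 encode pumps that export back into the blood (Abcc3 and Abcc4), and Nr0b2 encodes SHP, a transcriptional repressor in the feedback control of the set. The rule that lists them uses symbols and no measured value.

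RNA sequencing covered the liver of male ob/ob mice, which carry a leptin mutation and become obese. Feeding began at an age of 6 weeks and lasted 4 weeks. In CD, which the sample labels call normal chow, corn oil made up 5% and sucrose 10% of the diet, whereas in WD, a high fat diet, cocoa butter made up 20% and sucrose 34%. All 4 diets held 1% cholesterol, so that no group shows the liver without added cholesterol, and CD+7KC and WD+7KC also held 0.01% 7-ketocholesterol (7KC), an oxidation product of cholesterol. Because every mouse lacked leptin, no lean liver was compared. Each group had 1 library, and the number of mice behind a library was not given in the sources used here, so the differences below were not checked against replicates and carry no p-value.

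Hepatocytes take up bile acids across the sinusoidal membrane, which faces the blood, and secrete them across the canalicular membrane into bile, so that the pool circulates between liver and gut. Sodium-dependent uptake runs through NTCP and sodium-independent uptake through the OATP family, while secretion is driven by ATP-binding cassette pumps. When bile acids accumulate, the nuclear receptor FXR is known to raise transcription of the bile salt export pump and of SHP, and SHP in turn represses bile acid synthesis and NTCP, while the sinusoidal pumps MRP3 and MRP4 offer a way back into the blood.

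The values were FPKM, fragment counts divided by transcript length and by the total of mapped fragments, so that levels of different genes can be set beside each other per length. The estimated depth was between 9440000 and 12100000 fragments per library. Hepatocyte markers fixed as a list were all above 0 in every library (10 of 10), and Alb, the gene of serum albumin, had 35084, 31205, 35981 and 30014 FPKM in CD, CD+7KC, WD and WD+7KC, in accord with the labelled tissue. In whole liver, fewer cells of a type and less RNA per cell cannot be told apart. Fold changes below are log2 ratios of FPKM + 0.1. Where a gene has a single RefSeq mRNA, an exact 95% interval of the ratio of estimated reads is given, which is taken without the 0.1 and covers counting error only, not the spread between mice.

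At the level of mRNA the 10 genes covered a wide range, and their order was led by the same pair of uptake carriers in every library. Slco1b2 had the highest FPKM of the 10 genes in all 4 libraries, and Slc10a1 came next in all 4. The canalicular pumps Abcb11, Abcb4 and Abcc2 and the sinusoidal pump Abcc3 formed a middle band between 56.1 and 109 FPKM. Below them lay Nr0b2 between 15.1 and 30.2 FPKM, Slco1a4 between 4.75 and 13 FPKM, Abcc4 between 3.20 and 6.22 FPKM and Slco1a1 between 0.218 and 3.30 FPKM. As deposited Abcb4 varied least, with a ratio of the highest to the lowest FPKM of 1.13, and Slco1a1 varied most, with a ratio of 15.2. The plot of levels by library shows both extremes on 1 axis.

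**Figure D1:**
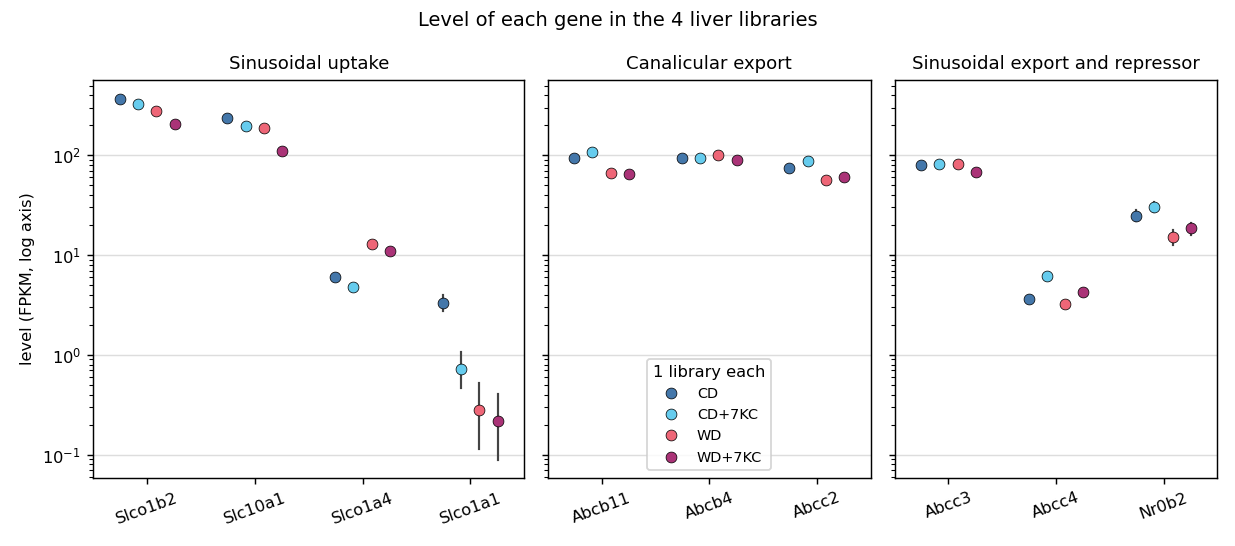
Level of each of the 10 genes in FPKM on a log axis (y) for each gene (x), with 1 point per library for CD, CD+7KC, WD and WD+7KC. Vertical lines are exact 95% Poisson intervals where a gene has a single RefSeq mRNA, and some are shorter than the points. Slco1b2 lies at the top in every library, from 370 FPKM in CD to 204 FPKM in WD+7KC, and Slco1a1 at the bottom, from 3.30 to 0.218 FPKM.

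Promoter sequences were taken from RefSeq on the GRCm38.p6 build for 9 of the 10 genes, Abcc3 being the gene without an entry. The inverted repeat bound by FXR was searched on both strands in windows of 300 bases around transcription starts. Its consensus was found in 29 of 32851 promoter windows (0.0883%) and in 2 of the 11 windows of these 9 genes, those of Abcb11 and Slco1b2. The match begins 63 bases before the start of Abcb11 and 88 bases before that of Slco1b2. These 250 bases upstream of each start are shown because both genes hold the motif, with the matching bases in capitals. Both mRNA levels were lower in WD than in CD, as were those of 7 of the 10 genes. That direction was thus not particular to the genes with the motif. The Abcb11 sequence is chr2:69342617-69342866 on the minus strand, and the Slco1b2 sequence is chr6:141629268-141629517 on the plus strand, both written 5′ to 3′ along the gene.
Abcb11: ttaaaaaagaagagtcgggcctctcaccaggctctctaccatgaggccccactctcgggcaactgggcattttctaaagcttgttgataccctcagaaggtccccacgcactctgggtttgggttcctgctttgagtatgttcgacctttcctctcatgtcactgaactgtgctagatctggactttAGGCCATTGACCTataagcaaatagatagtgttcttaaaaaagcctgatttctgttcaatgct
Slco1b2: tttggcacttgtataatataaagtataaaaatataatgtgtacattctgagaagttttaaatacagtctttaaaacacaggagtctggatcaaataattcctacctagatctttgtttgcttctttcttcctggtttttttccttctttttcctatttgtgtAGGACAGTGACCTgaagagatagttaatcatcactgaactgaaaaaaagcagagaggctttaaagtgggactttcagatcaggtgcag

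A match describes these letters and says nothing of binding in these livers. The motif bound by HNF1 was found in 19 of all windows (0.0578%), and motif TCAAGGTCA, of the kind bound by LRH-1, in 139 (0.423%), and neither was found in a window of these genes. Motif TGACNNNGC, the core of the antioxidant response element bound by NRF2, was found in 4071 of all windows (12.4%) and in 3 of the 11 windows, namely both windows of Abcc4, where the matches lie 25 and 23 bases before their starts, and the window of Abcc2, where the match lies 98 bases before the start.

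Slc10a1 encodes NTCP, the sodium-dependent carrier for conjugated bile acids (GRCm38 chromosome 12, 80953183 to 80968705, minus strand). Its level was 238 FPKM in CD against 198 FPKM in CD+7KC, and 187 FPKM in WD against 111 FPKM in WD+7KC. CD was thus the highest library and WD+7KC the lowest, and each 7KC library was below the library of the same diet without 7KC. The log2 fold change of Slc10a1 in WD+7KC compared to WD was -0.75, a ratio of 0.594 in FPKM, and of the 10686 genes averaging 1 FPKM or more across libraries 1.5% had a lower value in that comparison. In CD+7KC compared to CD its log2 fold change was -0.26. For the diets the log2 fold changes of Slc10a1 were -0.34 in WD compared to CD and -0.83 in WD+7KC compared to CD+7KC. After the FPKM of each library were rescaled to equal sums, these 4 values were -0.53, -0.22, -0.31 and -0.62 in the same order, so that the sign was kept in each.

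Slco1b2 encodes OATP1B2, the main hepatic organic anion carrier of its family in the mouse (chromosome 6, 141629518 to 141686646, plus strand). Its level was 370 FPKM in CD against 330 FPKM in CD+7KC, and 279 FPKM in WD against 204 FPKM in WD+7KC, the same order of libraries as for Slc10a1. With 7KC the log2 fold change of Slco1b2 under WD was -0.45 (counting interval -0.49 to -0.40), and in CD+7KC compared to CD it was -0.16 (counting interval -0.20 to -0.13). For the diets it was -0.41 (counting interval -0.45 to -0.37) in WD compared to CD and -0.69 (counting interval -0.74 to -0.65) in WD+7KC compared to CD+7KC. Each of these differences was larger than counting error, and each kept its sign after rescaling to equal sums (-0.23, -0.12, -0.38 and -0.48).

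The summed FPKM of the 4 uptake carriers was 617, 534, 480 and 327 in CD, CD+7KC, WD and WD+7KC. Slco1b2 and Slc10a1 made up nearly all of it. Slco1b2 took 60.0%, 61.9%, 58.1% and 62.5% of the sum in CD, CD+7KC, WD and WD+7KC, and Slc10a1 took 38.5%, 37.1%, 39.1% and 34.1%. The sum for the 3 canalicular pumps was 264, 291, 222 and 214 FPKM in the same order, and that of the 2 sinusoidal pumps was 83.0, 88.9, 84.4 and 72.3 FPKM. WD+7KC was the lowest library for each of the 3 sums as deposited. After rescaling to equal sums it was still the lowest for uptake (862, 767, 686 and 543 TPM), whereas WD was the lowest for the canalicular pumps (369, 419, 317 and 356 TPM) and CD for the sinusoidal pumps (116, 128, 121 and 120 TPM).

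Slco1a1 and Slco1a4 encode OATP1A1 and OATP1A4, close paralogs that carry a broad range of organic anions, and OATP1A1 is known for higher expression in the male than in the female mouse liver. They lie on the minus strand of chromosome 6, Slco1a4 at 141805440 to 141856199 and Slco1a1 at 141907282 to 141946962, with 51082 bases between them. Slco1b2 lies 118793 bases before Slco1a4 in the same cluster, which spans 317445 bases from Slco1b2 to Slco1a1. The 250 bases upstream of both starts are shown because these neighbours had the widest differences of the 10 genes, in opposite directions. None of the 4 motifs was found in them, so that no base is in capitals. The Slco1a1 sequence is chr6:141946963-141947212 and the Slco1a4 sequence is chr6:141856221-141856470, both on the minus strand.
Slco1a1: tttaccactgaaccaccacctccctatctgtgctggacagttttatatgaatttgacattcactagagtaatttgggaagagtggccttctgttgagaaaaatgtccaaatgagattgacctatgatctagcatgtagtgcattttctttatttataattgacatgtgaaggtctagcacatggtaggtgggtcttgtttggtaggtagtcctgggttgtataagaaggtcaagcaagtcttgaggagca
Slco1a4: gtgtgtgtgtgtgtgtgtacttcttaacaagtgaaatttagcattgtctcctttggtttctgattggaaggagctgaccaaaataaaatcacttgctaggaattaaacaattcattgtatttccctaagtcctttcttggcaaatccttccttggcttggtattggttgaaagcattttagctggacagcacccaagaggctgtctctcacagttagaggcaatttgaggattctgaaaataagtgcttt

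Slco1a1 was at 3.30 FPKM in CD (95% Poisson interval 2.72 to 3.96), 0.721 FPKM in CD+7KC (0.463 to 1.06), 0.280 FPKM in WD (0.115 to 0.523) against 0.218 FPKM in WD+7KC (0.0893 to 0.408). CD was above the 3 other libraries and CD+7KC came next, its interval overlapping only that of WD, while the intervals of WD and WD+7KC overlapped each other. The estimated reads of Slco1a1 were 115.2, 25.2, 8.5 and 8.4 in CD, CD+7KC, WD and WD+7KC, so that the WD libraries rested on few reads. In WD compared to CD the log2 fold change was -3.16 (counting interval -4.88 to -2.61), and in CD+7KC compared to CD it was -2.05 (counting interval -2.89 to -1.57). The value in WD+7KC compared to CD+7KC was -1.37 (counting interval -3.15 to -0.59). With a pseudocount of 1 these 3 values of Slco1a1 were -1.75, -1.32 and -0.50. Between WD+7KC and WD the log2 fold change of -0.26 had a counting interval of -1.97 to 1.25, so that a difference in either direction was not detectable at this depth.

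Slco1a4 went the other way with diet. Its level was 6.01 FPKM in CD against 4.75 FPKM in CD+7KC, and 13 FPKM in WD against 10.9 FPKM in WD+7KC, and both WD libraries were above both CD libraries. The log2 fold change of Slco1a4 was 1.10 in WD compared to CD and 1.18 in WD+7KC compared to CD+7KC, ratios of 2.16 and 2.29 in FPKM. With a pseudocount of 1 in place of 0.1, the value in WD compared to CD was 0.997. With 7KC the log2 fold change of Slco1a4 was -0.26 under WD and -0.34 under CD. After rescaling to equal sums these values were -0.04 and -0.30, so that the difference under WD was nearly lost. Slco1a4 made up 0.975%, 0.889%, 2.71% and 3.32% of the summed uptake carriers in CD, CD+7KC, WD and WD+7KC, whereas Slco1a1 made up 0.535%, 0.135%, 0.0584% and 0.0667%. Because the transcripts are similar, reads could be split between paralogs by the counting. Of the windows of 75 bases (the read length) along the mRNA, 58 of 3321 of Slco1a1 also occur in Slco1a4, 57 in Slco1a5 and 22 in Slco1a6. Slco1a5 was listed at 0 in all 4 libraries, and Slco1a6 at 0 in all but WD.

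By Euclidean distance between centred log2(FPKM + 0.1) values over the 4 libraries, the 3 genes nearest to Slco1a1 among 10676 genes were Serpina4-ps1 (distance 0.87), Slc22a7 (0.941) and Adig (0.955). Serpina4-ps1 was at 8.94, 2.13, 1.10 and 0.358 FPKM in CD, CD+7KC, WD and WD+7KC. Slc22a7, which encodes the organic anion carrier OAT2, was at 3.58, 1.86, 0.761 and 0.364 FPKM in the same order. Adig was at 2.99, 1.49, 0.497 and 0.193 FPKM. These genes were picked for nearness over the same 4 libraries. The order they share with Slco1a1, with CD highest and WD+7KC lowest, is therefore no separate result. For Slco1a1 itself, WD and WD+7KC were not told apart, at 8.5 and 8.4 estimated reads.

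Abcb11 encodes BSEP, the canalicular export pump for bile salts (chromosome 2, 69238282 to 69342616, minus strand). Its level was 94.7 FPKM in CD against 109 FPKM in CD+7KC, and 65.9 FPKM in WD against 65.1 FPKM in WD+7KC. The WD libraries lay below the CD libraries, with log2 fold changes of -0.52 in WD compared to CD and -0.74 in WD+7KC compared to CD+7KC. With 7KC, the log2 fold change of Abcb11 was -0.02 under WD and 0.20 under CD. After rescaling to equal sums the value under WD was 0.20, so that its sign depended on the scaling. The Abcb11 mRNA shares 64 of 4889 windows of 75 bases with the gene model Gm13613. Abcc2, which encodes MRP2, the canalicular pump for bilirubin conjugates and other conjugated anions (chromosome 19, 43782192 to 43840740, plus strand), was at 74.8, 88.5, 56.1 and 60.2 FPKM in CD, CD+7KC, WD and WD+7KC. Both WD libraries were again below both CD libraries, with log2 fold changes of -0.42 (counting interval -0.47 to -0.36) in WD compared to CD and -0.56 (counting interval -0.61 to -0.51) in WD+7KC compared to CD+7KC. With 7KC, Abcc2 was higher under both diets, by 0.10 (counting interval 0.05 to 0.16) under WD and by 0.24 (counting interval 0.20 to 0.29) under CD on the log2 scale. After rescaling to equal sums these values were 0.32 (counting interval 0.26 to 0.38) and 0.28 (counting interval 0.24 to 0.33). Which diet had the larger value thus depended on the scaling.

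Abcb4 encodes the phospholipid flippase MDR2, which delivers phosphatidylcholine to bile (chromosome 5, 8893717 to 8959231, plus strand). It stood at 94.4 FPKM in CD against 94.2 FPKM in CD+7KC, and 100 FPKM in WD against 88.8 FPKM in WD+7KC. The log2 fold changes of Abcb4 were -0.17 (counting interval -0.24 to -0.11) in WD+7KC compared to WD and 0.09 (counting interval 0.02 to 0.15) in WD compared to CD. In CD+7KC compared to CD the counting interval of -0.07 to 0.06 spanned 0. After rescaling to equal sums the value in WD+7KC compared to WD was 0.04, so no direction is given for this gene. Its mRNA shares 60 of 4005 windows of 75 bases with Abcb1a or Abcb1b.

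Abcc3 encodes MRP3, a pump for glucuronides and bile acids on the sinusoidal side (chromosome 11, 94343295 to 94392997, minus strand). It was at 79.3 FPKM in CD against 82.7 FPKM in CD+7KC, and 81.2 FPKM in WD against 68.0 FPKM in WD+7KC. WD+7KC was the lowest as deposited, whereas after rescaling to equal sums (111, 119, 116 and 113 TPM in CD, CD+7KC, WD and WD+7KC) CD was the lowest and the range was narrow. The log2 fold change of Abcc3 in WD+7KC compared to WD was -0.25 as deposited and -0.04 after rescaling to equal sums. Abcc4, which encodes MRP4, the sinusoidal pump that co-transports bile acids with glutathione (chromosome 14, 118482692 to 118706219, minus strand), was at 3.66 FPKM in CD against 6.22 FPKM in CD+7KC, and 3.20 FPKM in WD against 4.24 FPKM in WD+7KC. Each 7KC library was above the library of the same diet without 7KC. The log2 fold change of Abcc4 was 0.75 in CD+7KC compared to CD and 0.39 in WD+7KC compared to WD, or 0.79 and 0.61 after rescaling to equal sums. Between the diets it was -0.19 without 7KC and -0.54 with 7KC. The estimated reads of Abcc4 were 220.5, 375.7, 166.7 and 282.9 in CD, CD+7KC, WD and WD+7KC.

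Nr0b2 (chromosome 4, 133553376 to 133556536, plus strand) was at 24.9 FPKM in CD against 30.2 FPKM in CD+7KC, and 15.1 FPKM in WD against 18.5 FPKM in WD+7KC. Both WD libraries were below both CD libraries, and each 7KC library was above its diet without 7KC. The log2 fold change of Nr0b2 was -0.72 (counting interval -1.04 to -0.42) in WD compared to CD and -0.71 (counting interval -0.97 to -0.45) in WD+7KC compared to CD+7KC. With 7KC it was 0.28 (counting interval 0.04 to 0.53) under CD and 0.29 (counting interval -0.02 to 0.62) under WD, where the interval spanned 0. After rescaling to equal sums these values were 0.32 (counting interval 0.08 to 0.57) and 0.51 (counting interval 0.19 to 0.84). Whether the interval under WD spanned 0 thus depended on the scaling. Nr1h4, which encodes FXR, was at 72.6, 52.4, 61.0 and 52.5 FPKM in CD, CD+7KC, WD and WD+7KC. The ratio of Nr0b2 to Nr1h4 within a library was 0.343, 0.576, 0.247 and 0.352 in that order. The WD libraries were thus below their CD counterparts in this ratio as well.

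With 7KC added to WD (WD+7KC compared to WD), none of the 10 genes was above 1 or below -1 on the log2 scale. Over the 10686 genes averaging 1 FPKM or more, 2.71% were above 1 and 0.767% below -1, and over the 15753 genes above 0 in at least 1 of these libraries the shares were 6.21% and 2.79%. At a lower threshold of 1.5-fold on the same scale, Slc10a1 was lower and no gene of the 10 was higher, beside 3.03% and 7.49% of the 10686 genes. After rescaling to equal sums Slc10a1 at -0.53 was within 1.5-fold. Of the 10 genes 7 were lower as deposited, beside 54.5% of the 10686. After rescaling 5 were lower, but no share of all genes was taken under that scaling. The median of the 10 genes was -0.21 as deposited and that of the 10686 genes -0.03. Rescaling to equal sums moved the median of the 10686 genes to 0.18, because the FPKM of WD+7KC summed to 602059 and those of WD to 699534. Relative to the median of all genes, the median of the 10 genes was -0.18 and Slc10a1 was -0.72 under either scaling. Rescaling shifts nearly all genes by the same amount, so this agreement follows from the method and is no separate check.

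In CD+7KC compared to CD, 1 of the 10 genes (Slco1a1) was below -1 and none above 1. The background was 0.861% below -1 and 1.18% above 1 over the 10686 genes, and 2.91% and 3.84% over the 15684 genes above 0. Past 1.5-fold, Abcc4 was higher and Slco1a1 was lower, beside 4.39% and 3.04% of the 10686 genes. Lower values were seen in 5 of the 10 genes and in 51.7% of the 10686 genes. The median of the 10 genes was 0.03, or 0.07 after rescaling to equal sums.

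In WD compared to CD, 1 of the 10 genes was above 1 (Slco1a4) and 1 below -1 (Slco1a1), beside 2.61% and 2.04% of the 10686 genes and 5.31% and 4.38% of the 15597 genes above 0. More than 1.5-fold lower were Slco1a1 and Nr0b2, beside 6.92% of the 10686 genes, and more than 1.5-fold higher was Slco1a4, beside 8.57%. Of the 10 genes 7 were lower, beside 50.7% of the 10686, and their median was -0.37. With 7KC in both diets (WD+7KC compared to CD+7KC), Slco1a4 was again above 1 and Slco1a1 below -1, beside 5.1% and 2.81% of the 10686 genes and 8.01% and 4.61% of the 15898 genes above 0. Here 5 of the 10 genes (Slc10a1, Abcb11, Slco1a1, Slco1b2 and Nr0b2) were more than 1.5-fold lower, beside 8.32% of the 10686 genes, and 1 was more than 1.5-fold higher, beside 11.8%. After rescaling to equal sums 2 of them, Slc10a1 and Slco1a1, were more than 1.5-fold lower, with no share of all genes taken under that scaling. As deposited all but Slco1a4 were lower, beside 52.6% of the 10686. The median of the 10 genes was -0.63 as deposited and -0.42 after rescaling. Relative to the median of all genes it was -0.60, a value that the common shift of rescaling leaves unchanged. WD compared to CD and WD+7KC compared to CD+7KC share no library. Each shares a library with both comparisons of 7KC within a diet, so a diet value and a 7KC value do not support each other.

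**Figure D2:**
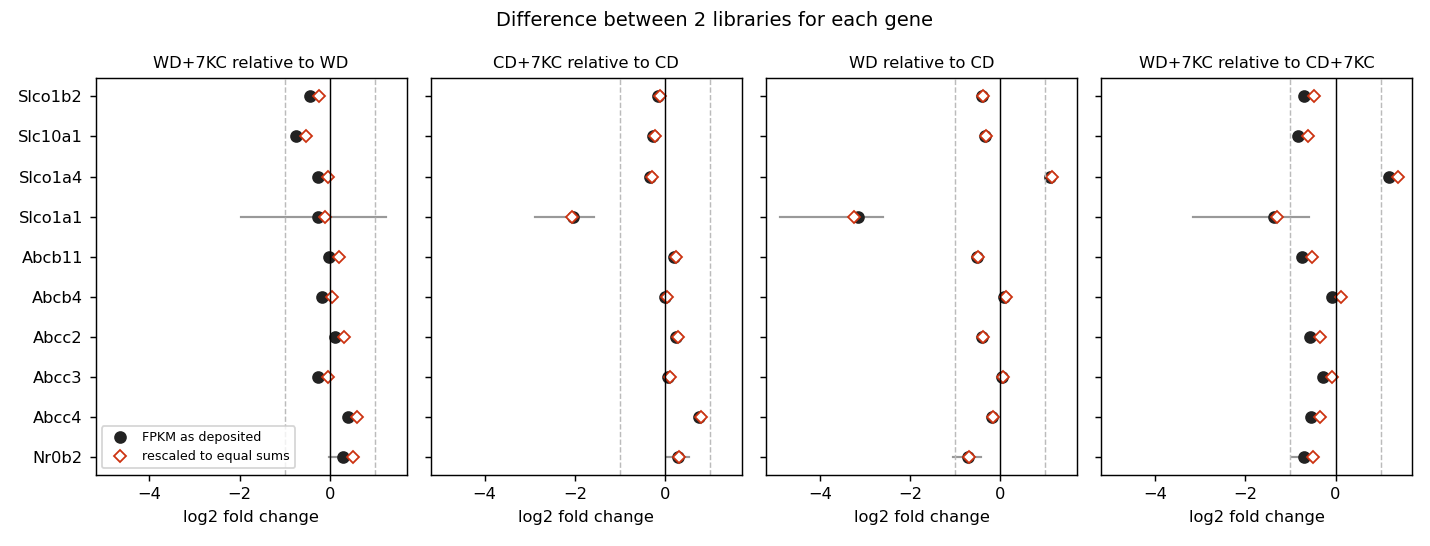
Log2 fold change (x) of each of the 10 genes (y) in the 4 comparisons, from FPKM as deposited (filled circles) and after rescaling to equal sums (open diamonds). Grey lines are exact 95% counting intervals where a gene has a single RefSeq mRNA, and dashed lines mark -1 and 1. Slco1a1 at -3.16 and Slco1a4 at 1.10 lie farthest apart in WD compared to CD.

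**Figure D3:**
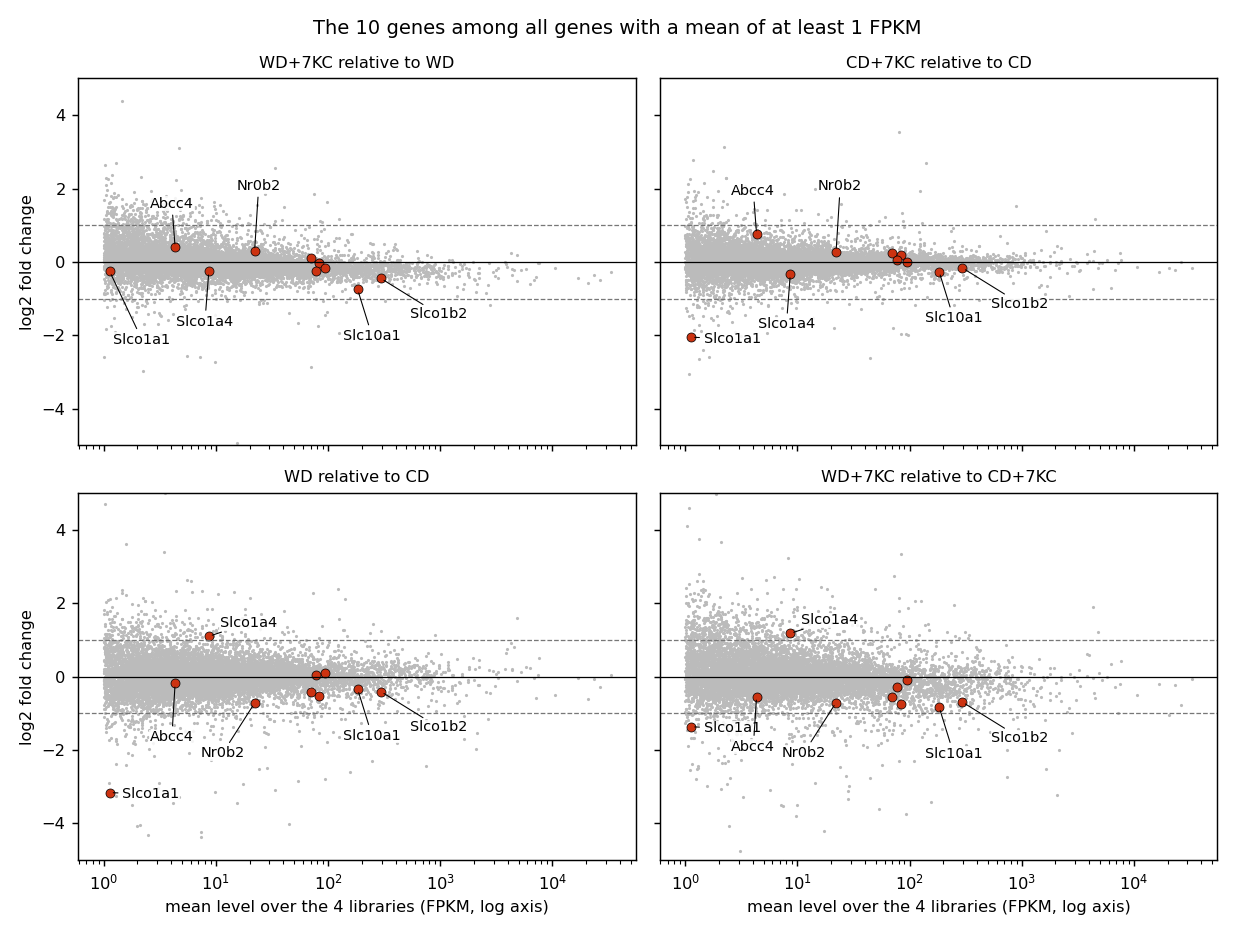
Log2 fold change (y) against mean FPKM over the 4 libraries on a log axis (x) for the 10686 genes averaging 1 FPKM or more (grey), with the 10 genes in red and 6 of them named. Dashed lines mark -1 and 1, and 21, 27, 22 and 34 grey points lie beyond the y axis in WD+7KC compared to WD, CD+7KC compared to CD, WD compared to CD and WD+7KC compared to CD+7KC. In WD+7KC compared to WD, Slc10a1 lies at -0.75 at the lower edge of genes of its level.

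The difference of the 7KC values under the diets (under WD minus under CD, with no library shared) was 1.79 for Slco1a1, -0.49 for Slc10a1, -0.36 for Abcc4 and -0.32 for Abcc3 on the log2 scale, and within 0.29 of 0 for the other 6. Once rescaled to equal sums, these 4 values were 1.94, -0.31, -0.18 and -0.14. Only Slco1a1 had a difference of more than 1.5-fold in either direction, 1 of the 10 genes beside 15.2% of 10650 genes, and its level in the WD libraries rested on about 8 reads each. These differences were not tested, since each group had 1 library.

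Ratios of 2 genes within a library do not depend on the scaling between libraries; the pairs were chosen after the values were seen. The ratio of Slc10a1 to Abcb11, uptake to canalicular export, was 2.51 in CD against 1.82 in CD+7KC, and 2.85 in WD against 1.71 in WD+7KC. It was thus lower in each 7KC library than in the library of the same diet without 7KC. The ratio of Slc10a1 to Abcb4 was 2.52, 2.10, 1.87 and 1.25 in the same order, lowest in WD+7KC. The ratio of Abcb11 to Abcb4 separated the diets, with 1.0 and 1.15 in CD and CD+7KC and 0.657 and 0.733 in WD and WD+7KC. The ratio of Nr0b2 to Abcb11 stayed between 0.229 and 0.283 in all 4 libraries. The widest was that of Slco1a4 to Slco1a1, with 1.82 in CD against 6.59 in CD+7KC, and 46.4 in WD against 49.8 in WD+7KC.

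**Figure D4:**
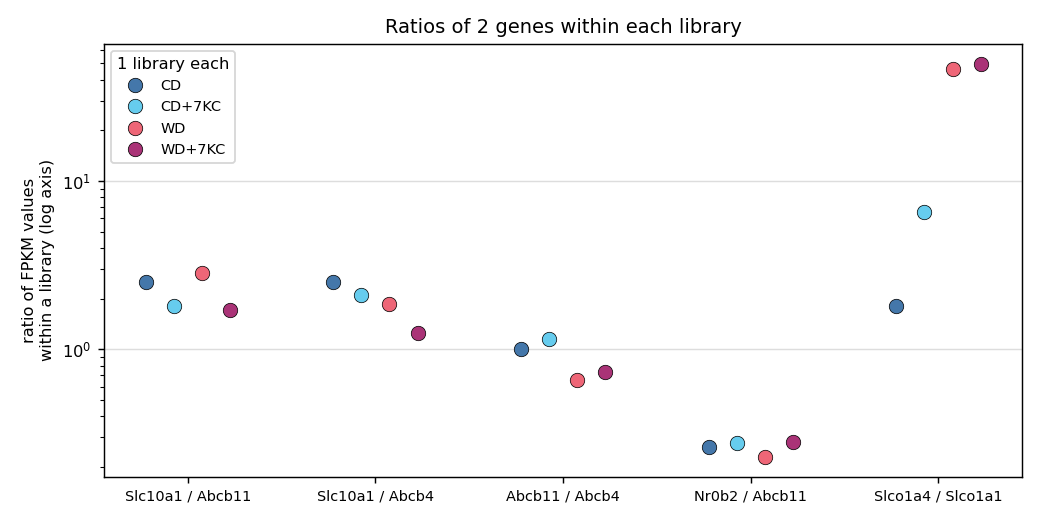
Ratio of the FPKM values of 2 genes within each library on a log axis (y) for 5 pairs (x), with 1 point per library. Slc10a1 to Abcb11 is lower in CD+7KC (1.82) and WD+7KC (1.71) than in CD (2.51) and WD (2.85), and Slco1a4 to Slco1a1 runs from 1.82 in CD to 49.8 in WD+7KC.

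Among 25 other transporters of organic ions and bile, 1 was above 1 and 0 below -1 in WD+7KC compared to WD, with a median of -0.14 and 16 lower of 23 above 0 as deposited. With FPKM rescaled to equal sums, the median was -0.05 and 12 were lower. The gene above 1 was Abcc1 at 0.294 FPKM in WD against 0.844 FPKM in WD+7KC. By the naming rule the lowest was Slc22a7 with a log2 fold change of -0.89 and the highest was Slco2a1, a prostaglandin carrier, with 0.59. In CD+7KC compared to CD the gene above 1 was Slc51b, the β subunit of the basolateral bile acid exporter OST, at 0.647, 3.55, 3.01 and 2.05 FPKM in CD, CD+7KC, WD and WD+7KC, while its partner Slc51a was listed at 0 in all 4. In WD compared to CD, Slc51b and Slc22a3 were above 1 and Slc22a7 below -1 at -2.09. Slco3a1 was above 1 in WD+7KC compared to CD+7KC, and Slc22a7 below -1 at -2.08. Abcg5, one subunit of the canalicular sterol exporter, was at 84.2, 86.2, 55.8 and 43.9 FPKM and Abcg8, the other, at 53.5, 53.7, 37.6 and 28.5 FPKM, so that the WD libraries were lower for both. The genes named here outside the naming rule were chosen after their values were seen.

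Of 15 regulators of these transporters, 0 were above 1 or below -1 in WD+7KC compared to WD, 13 of 14 above 0 were lower and the median was -0.17 as deposited. Rescaled to equal sums, 4 were lower, 10 were higher and the median was 0.05, so no direction is given for this list. The medians of the 10686 genes in this comparison were -0.03 as deposited and 0.18 rescaled. Nr1i3, which encodes the xenobiotic receptor CAR, was the lowest at -0.61 (-0.40 rescaled) and had 45.6, 72.5, 29.4 and 19.2 FPKM in CD, CD+7KC, WD and WD+7KC. Nfe2l2, which encodes NRF2, was the highest at 0.40 (0.62 rescaled) and had 36.5, 48.0, 36.3 and 48.0 FPKM, higher in both 7KC libraries. In CD+7KC compared to CD, Gpbar1 was the only regulator above 1, at 0.115 FPKM against a value listed at 0, and the median was 0.14. In WD compared to CD none was above 1 or below -1, and only Nr1i3 at -0.63 was beyond 1.5-fold. The median was 0.02, or 0.05 after rescaling. Nr1i3 at -1.91 and Gpbar1 were below -1 in WD+7KC compared to CD+7KC. The median there was -0.13 as deposited and 0.08 after rescaling, beside -0.02 and 0.18 for the 10686 genes.

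Of 10 targets of CAR and PXR, 3 were above 1 in CD+7KC compared to CD as deposited (Cyp2b13, Gsta1 and Gstm3) and 5 after rescaling to equal sums, 0 were below -1, and the median was 0.80. Cyp2b13 was at 9.72, 38.8, 3.66 and 5.11 FPKM in CD, CD+7KC, WD and WD+7KC and was the highest of the list in WD+7KC compared to WD. In that comparison 1 gene, Cyp3a11, was below -1 at -1.17, with 3735, 3491, 2724 and 1214 FPKM, and the median was -0.29. After rescaling Cyp3a11 was at -0.95, so that none was below -1, and the median was -0.07. In WD compared to CD, 1 was above 1 (2 after rescaling) and 2 below -1 with a median of 0.04 (0.08 after rescaling), and in WD+7KC compared to CD+7KC the counts were 1 and 4 with a median of -0.85. Of 10 NRF2 targets, Hmox1, which encodes heme oxygenase, was the only gene beyond 1 in either direction as deposited, below -1 in CD+7KC compared to CD and in WD compared to CD. Nqo1 of the same list went the other way in these comparisons, at 0.97 and 0.88. It had 12.1, 23.8, 22.3 and 21.5 FPKM in CD, CD+7KC, WD and WD+7KC. Hmox1 was at 42.4, 19.3, 19.9 and 33.1 FPKM and was the highest of its list among those averaging 1 FPKM or more in WD+7KC compared to WD at 0.73 (0.94 rescaled), while Gclm was the lowest at -0.20 (0.02 rescaled). The medians of the NRF2 targets were 0.09 in WD+7KC compared to WD, -0.09 in CD+7KC compared to CD, 0.002 in WD compared to CD and -0.04 in WD+7KC compared to CD+7KC. With sums made equal, they were 0.31, -0.05, 0.03 and 0.17, beside 0.18, 0.03, 0.02 and 0.18 for the 10686 genes. Then 10, 4, 6 and 9 of 10 were higher, against 7, 4, 5 and 5 as deposited. Under that scaling 1 gene was above 1 in WD+7KC compared to WD (Gpx2) and 1 in CD+7KC compared to CD (Nqo1). Gpx2 was at only 0.123 FPKM in WD against 0.286 FPKM in WD+7KC, and its counting interval of -2.2 to 7.16 after rescaling spanned 0.

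Bile acid synthesis and conjugation, a list of 13 genes, was lower in the WD than in the CD libraries. With 7KC added to WD, all 13 were lower as deposited with a median of -0.30 and 10 were lower with a median of -0.09 after rescaling to equal sums, and 1 was below -1. That gene was Cyp8b1, the 12α-hydroxylase that directs synthesis to cholic acid, at 186, 47.3, 104 and 38.0 FPKM in CD, CD+7KC, WD and WD+7KC. Cyp8b1 was also the 1 gene of the list below -1 in CD+7KC compared to CD, at -1.97, where the median was -0.03, or 0.01 after rescaling. In WD compared to CD all 13 were lower with a median of -0.40, and in WD+7KC compared to CD+7KC all 13 were lower with a median of -0.77, or -0.56 after rescaling, when 12 were lower in each. The 1 gene below -1 in each of these was Akr1d1, a steroid reductase of bile acid synthesis, at 64.7, 80.1, 30.2 and 29.0 FPKM. Akr1d1 was the highest of the list in WD+7KC compared to WD at -0.06, or 0.16 rescaled. Cyp7a1, the rate-limiting enzyme, was at 18.1, 11.5, 13.1 and 6.53 FPKM, lower in each 7KC library than without 7KC.

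Of 13 scaffold and trafficking genes of the hepatocyte membranes, 0 were beyond 1 in WD+7KC compared to WD, CD+7KC compared to CD or WD compared to CD, with medians of 0.14, -0.07 and 0.08. Once rescaled to equal sums, the median in WD+7KC compared to WD was 0.36, with 13 of 13 higher against 8 as deposited, and Msn was above 1 at 1.18. Under this scaling the median of the 10686 genes averaging 1 FPKM or more was itself 0.18. Ezr and Msn were above 1 in WD+7KC compared to CD+7KC, and the median was 0.18, or 0.39 rescaled. Msn, which encodes moesin, was at 9.05, 8.05, 9.11 and 17.8 FPKM, and moesin is also abundant in blood and endothelial cells. Rdx, which encodes radixin, the linker that holds MRP2 at the canalicular membrane, was at 49.9, 46.1, 38.1 and 36.6 FPKM in CD, CD+7KC, WD and WD+7KC. Vipas39, a trafficking gene, was the lowest of the list in WD+7KC compared to WD at -0.16, or 0.05 rescaled.

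Slco1a1 is a male-biased gene of the mouse liver, and the 9 other genes of the male-biased list had medians of -0.53 in WD+7KC compared to WD, -0.24 in CD+7KC compared to CD, -0.52 in WD compared to CD and -0.90 in WD+7KC compared to CD+7KC. The counts below -1 were 3, 1, 3 and 4 of 9 in that order, and the counts above 1 were 0, 0, 1 and 1. With FPKM rescaled to equal sums, the median in WD+7KC compared to WD was -0.32 and 2 of 9 were below -1. Elovl3, an elongase of very long fatty acids, was at 54.6, 45.2, 9.71 and 4.41 FPKM in CD, CD+7KC, WD and WD+7KC, and Serpina1e was at 143, 23.2, 8.77 and 3.30 FPKM. Their order of libraries was that of Slco1a1, for which WD and WD+7KC were not told apart. Mup20, a major urinary protein gene of the same list, was higher in WD, at 2754, 2454, 8315 and 5747 FPKM. Cyp4a12a was the lowest of the male-biased list in WD+7KC compared to WD at -1.73. Of 11 female-biased genes, the counts above 1 and below -1 were 1 and 2 in WD+7KC compared to WD, 5 and 0 in CD+7KC compared to CD, 2 and 3 in WD compared to CD and 1 and 6 in WD+7KC compared to CD+7KC. Cyp17a1 was the highest of these in WD+7KC compared to WD at 1.13 and Cyp2b9 the lowest of those averaging 1 FPKM or more at -0.21, or 0.01 rescaled. These lists overlap in Cyp2b13 with the CAR and PXR targets and in Cyp7b1 with bile acid synthesis.

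The levels of cell type markers moved with these groups too. The 10 hepatocyte markers summed to 56656, 48687, 57748 and 45767 FPKM in CD, CD+7KC, WD and WD+7KC, and their median log2 fold change was -0.27 in WD+7KC compared to WD, or -0.06 after rescaling to equal sums. In CD+7KC compared to CD, WD compared to CD and WD+7KC compared to CD+7KC, it was -0.15, -0.05 and -0.23, or -0.11, -0.02 and -0.02 after rescaling. The 10 macrophage and Kupffer cell markers summed to 154, 245, 267 and 536 FPKM, and the 7 endothelial markers to 56.5, 82.6, 45.1 and 127 FPKM, so that both were highest in WD+7KC, the library with the lowest Slc10a1 and Slco1b2. The 10 cholangiocyte markers summed to 105, 47.7, 128 and 189 FPKM, most of it Spp1, which other cells of the liver also express, with 98.7, 43.7, 124 and 183 FPKM. Krt19 and Epcam, which define cholangiocytes, were between 0.632 and 1.09 FPKM in every library. The 8 stellate cell markers summed to 182, 147, 189 and 185 FPKM, most of it Dcn with 139, 118, 145 and 137 FPKM. Their median log2 fold change was -0.10 in WD+7KC compared to WD, or 0.12 after rescaling to equal sums. It was -0.54 in CD+7KC compared to CD, 0.09 in WD compared to CD and 0.54 in WD+7KC compared to CD+7KC. The part of these cell types in the values of the transporters was not tested.

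Markers of other tissues did not all share a pattern. Of the fat markers, Car3 and Cfd were both highest in CD and lowest in WD+7KC, whereas Fabp4 was highest in WD+7KC. Of 5 fat markers, Plin1 was at 0 in all 4 libraries and Adipoq, which defines fat cells, was at 0.0885 FPKM or less. Car3, which is also expressed in the liver and made up most of the summed level, was at 3466, 3096, 1190 and 778 FPKM in CD, CD+7KC, WD and WD+7KC. Fabp4, which macrophages also express and which was the highest of the list in WD+7KC compared to WD at 0.45, went the other way with 83.5, 66.5, 104 and 143 FPKM. Cfd, which encodes adipsin, was the lowest at -2.87, with 220, 63.2, 1.47 and 0.115 FPKM. The sum of the fat markers was 3770, 3225, 1295 and 921 FPKM. The 8 kidney and gut markers summed to 289, 274, 285 and 212 FPKM, of which Fabp2, also expressed in the liver, held 289, 274, 278 and 208 FPKM. Umod, Kap, Slc34a1 and Lct, 4 of the 6 above 0, were above 1 in WD compared to CD, each listed at 0 in CD. Kap, which encodes the kidney androgen-regulated protein, had 4.48 FPKM in WD against 3.07 FPKM in WD+7KC, and Lct, which encodes lactase, had 2.49 FPKM against 0.0275 FPKM. Umod and Slc34a1 stayed at or below 0.147 FPKM in every library.

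**Figure D5:**
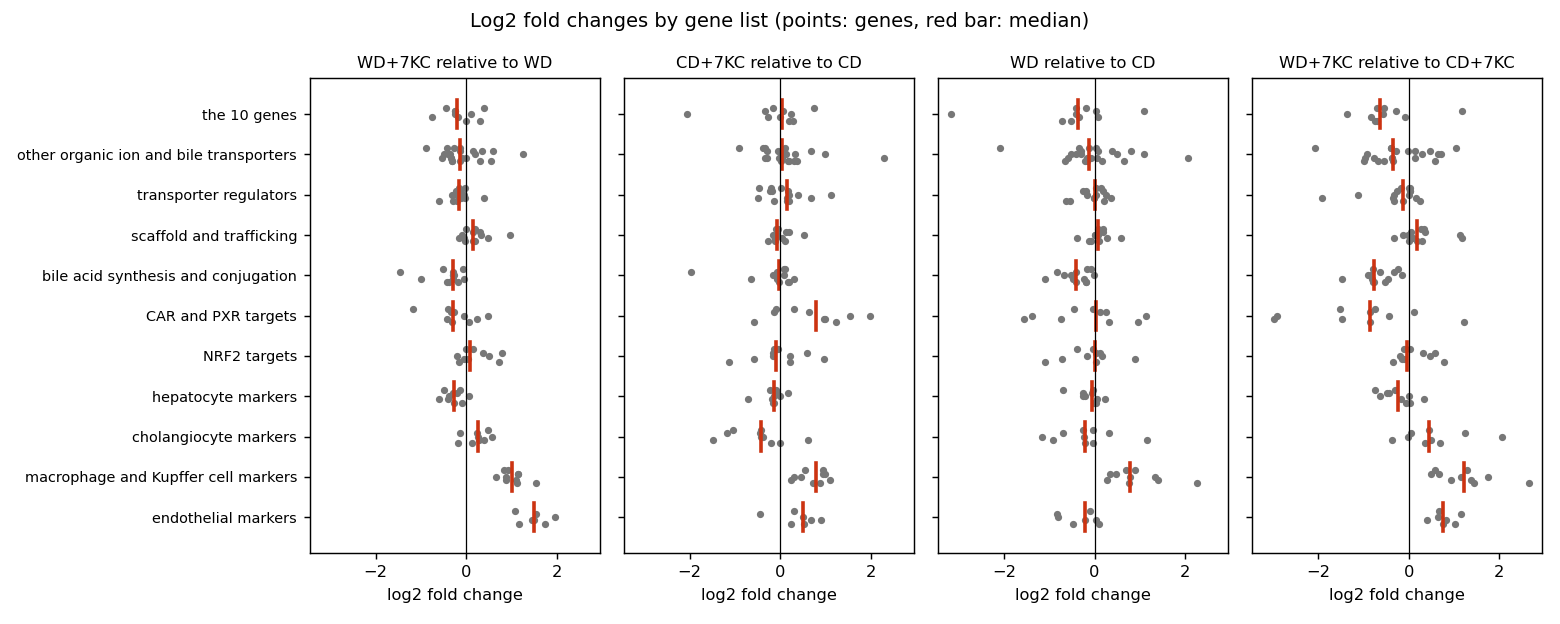
Log2 fold change of single genes (grey points, x) for the 10 transporter and repressor genes, 6 related gene lists and 4 cell type marker lists (y) in the 4 comparisons, with red bars at the medians. In WD+7KC compared to CD+7KC the median of the 10 genes lies at -0.63 and that of the bile acid synthesis genes at -0.77.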

How the data were processed

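RNA sequencing of liver was analysed in 4 libraries, 1 for each of CD, CD+7KC, WD and WD+7KC. The authors sequenced single-end reads of 75 bases, mapped them to mm10 (GRCm38) and computed FPKM values, which they deposited as 1 value per gene symbol and library. Per the submitters' processing notes the tools were TopHat2 2.0.13, Bowtie2 2.2.3, SAMtools 0.1.19 and Cufflinks 2.2.1. The gene annotation and the Cufflinks options were not given in the sources used here. FPKM depends on the total of mapped fragments, so a few abundant genes can shift all others, which is why values rescaled to equal sums (TPM) are set beside them.

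Log2 fold changes were computed from FPKM + 0.1 for genes that were not at 0 in both libraries, which understates differences of low genes. Genes beyond 1 on the log2 scale, or beyond 1.5-fold, were counted. The shares of all genes were taken from FPKM as deposited only, so counts under other scalings have no share to be set against. The 10 genes and all gene lists were chosen with earlier results of these data known. The genes named from a list were those with the highest and lowest log2 fold change in WD+7KC compared to WD among genes averaging 1 FPKM or more, and the 3 genes nearest to the gene of the 10 with the widest range, and others were named where a count was 5 or fewer. With 1 library per group no test was made.

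Depth came from the spacing of low FPKM values in 11793 genes that have a single RefSeq mRNA, taking 200 bases off the transcript length, and 72.9% to 73.5% of low values lay within 0.1 of a whole read. Intervals are exact 95% Clopper-Pearson or Poisson intervals of these estimated reads and cover counting error only. Coordinates and transcripts came from GENCODE vM21 and promoters from RefSeq. The alternatives were pseudocounts of 1 and 0.01, a filter of at least 1 FPKM and 4 other scalings between libraries. The code was tested on simulated data. The scripts ran under Python 3.11.15 with matplotlib 3.10.9 for figures, scipy 1.17.1 for intervals, pandas 2.3.3 and numpy 2.4.6.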

Additional observations from a re-analysis of the deposited data

Results flagged for a closer look

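Abcb11 and Abcc3 stood on opposite sides of 0 with 7KC under the different diets, with 1 library per group. The log2 fold change of Abcb11 with 7KC was -0.02 under WD and 0.20 under CD. That of Abcc3 was -0.25 under WD and 0.06 under CD. Neither difference between the diets was tested. After rescaling to equal sums the values of Abcb11 were 0.20 and 0.24, so that the opposite signs were lost, and those of Abcc3 were -0.04 and 0.10.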

How the results depend on the processing

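No paired analysis was possible because each group had 1 library. No gene beyond 1.5-fold turned its direction under the 7 alternatives. The sign of the log2 fold change was kept under each alternative that gave a value for 8 of the 10 genes in WD+7KC compared to WD, 9 in CD+7KC compared to CD, 10 in WD compared to CD and 9 in WD+7KC compared to CD+7KC, the exceptions being Abcb11 and Abcb4 in WD+7KC compared to WD and Abcb4 in both comparisons that involve CD+7KC. For Slco1a1 the filter of at least 1 FPKM gave no value in WD+7KC compared to WD. In WD+7KC compared to WD, rescaling to equal sums left 0 genes more than 1.5-fold lower and 1 more than 1.5-fold higher (Abcc4) with a median of 0.002, and the same without the 20 most abundant genes left 0 more than 1.5-fold lower with a median of -0.04. In WD+7KC compared to CD+7KC the same settings left 2 genes more than 1.5-fold lower, with medians of -0.42 and -0.43. With a pseudocount of 1, 0 genes were above 1 in WD compared to CD, and in WD+7KC compared to CD+7KC 0 were below -1 and the median was -0.52. Under a filter of at least 1 FPKM, 0 were below -1 in WD+7KC compared to CD+7KC, because Slco1a1 was then not counted. A pseudocount of 0.01, upper quartile scaling and median-ratio scaling moved no count by over 1.5 times and no median by over 0.1. The levels of Slco1a1 in the WD libraries rested on the fewest reads.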
